A study of Mus musculus with 3 samples.

Results

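Chemokines are small secreted proteins that draw leukocytes into tissue, and hepatoma cells make several of them. Here 10 chemokine genes were followed in Hepa1c1c7, a mouse hepatoma cell line, after transfection. They are a chosen set of well-studied mouse chemokines, and their probes were found by matching the transcript accession of each array probe to a gene symbol. A probe was matched for 9 of the 10 genes, of 45616 features on the array, of which 22904 carried a gene symbol. Each of the 9 genes was read by 1 probe printed on 1 spot. No probe was matched for Cxcl11, which is not analysed here. The array holds probes for it, but the gene table used for matching does not list their accession.

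The cells received an empty vector, a vector with the open reading frame of Mst1r, which encodes a growth factor receptor with kinase activity, or the same kind of vector with that of Slpi, a secreted protease inhibitor. All 3 groups were the same line of mouse liver tumour cells in the same culture conditions, transfected with a commercial plasmid and, per the study's methods, examined after a day. Each group was 1 one-colour array, so groups cannot be tested against each other, and each difference compares 2 arrays. The sample titles do not say how many cultures an array stands for. The error given with a difference is the SD between spots expected at that signal level, written as the spot SD. It covers neither culture, transfection nor labelling.

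The labels were checked on the transfected genes. The probe for Mst1r stayed at background on all arrays, with a signal of 4.15, 4.08 and 3.70 on the arrays labelled empty vector, Mst1r vector and Slpi vector. The brighter of 2 Slpi probes read 6459, 3843 and 6680 in the same order, and its difference from empty vector on the array labelled Slpi vector was 0.13 ± 0.13 on the log2 scale (spot SD, 1 array a group). Neither gene was therefore brighter on its own array beyond the spot error, and whether these probes lie in the part carried by the vectors was not tested. The study also measured Mst1r in transfected cells by real-time PCR, which is not analysed here. The arrays are called Mst1r-labelled and Slpi-labelled from here on.

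Of the 6 hepatocyte or hepatoma markers, Alb, Afp and Trf were well above background on all 3 arrays, whereas Hnf4a was on none. Among the leukocyte markers, the pan-leukocyte gene Ptprc and the macrophage gene Adgre1 were on no array above background, and Csf1r, Itgam, Cd68 and Cd3e were on all. Divided by each array's 75th percentile, the summed leukocyte signal was 21.6, 27.4 and 22.4 on the empty vector, Mst1r-labelled and Slpi-labelled arrays, and the summed endothelial signal over 4 genes was 0.182, 0.206 and 0.137. All 4 stellate cell or fibroblast markers were above background and summed to 49.0, 50.9 and 47.4 on that scale, and the hepatocyte or hepatoma markers to 273.9, 258.7 and 280.8. Single markers differed between the Mst1r-labelled array and empty vector by as much as some chemokines did. On the log2 scale of differences, Csf1r was at 0.45 ± 0.12, Itgam at 0.34 ± 0.12, Alb at 0.57 ± 0.13, Col1a1 at 0.27 ± 0.04 and Des, printed in row 55, at -2.35 ± 0.42. Des read 227, 37.9 and 58.2 on the empty vector, Mst1r-labelled and Slpi-labelled arrays. It was thus also lower than empty vector on the Slpi-labelled array, at -1.89 ± 0.42. The part of these marker genes in the chemokine values was not tested. On each array, 46.7% to 48.5% of the 56605 probes exceeded background clearly.

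Chemokine genes are switched on by inflammatory signals through a small number of routes. Interferons act through STAT proteins and interferon regulatory factors, which bind the interferon-stimulated response element (ISRE) and the gamma-activated site (GAS), and they are the classical inducers of Cxcl9, Cxcl10 and Cxcl11. Tumour necrosis factor, interleukin 1 and Toll-like receptors act through NF-kB, the classical inducer of Cxcl1, Cxcl2, Cxcl5, Ccl2, Ccl7 and Cx3cl1. The genes are grouped by these routes as interferon-type, with Ccl5 added although NF-kB also drives it, and NF-kB-type. The grouping follows common knowledge of these genes, and the set was chosen with earlier results of these arrays known. The groups are not taken as exclusive routes. An NF-kB motif, described below, also lay before the starts of Cxcl9 and Cxcl10.

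The 250 bases before the annotated start were read for 5 of the 10 genes from RefSeq promoter windows (GRCm38.p6), since windows of the other 5 were not matched. The windows of both measured Cxcr3 ligands and of a pair of Cxcr2 ligands are shown, to set interferon-type beside NF-kB-type genes, 5′ to 3′ on the strand of the gene, with matches to the motifs searched in capitals. These are Cxcl10 (chr5:92348890-92349139, minus strand), Cxcl9 (chr5:92328080-92328329, minus strand), Cxcl1 (chr5:90890995-90891244, plus strand) and Cxcl2 (chr5:90903649-90903898, plus strand).
Cxcl10: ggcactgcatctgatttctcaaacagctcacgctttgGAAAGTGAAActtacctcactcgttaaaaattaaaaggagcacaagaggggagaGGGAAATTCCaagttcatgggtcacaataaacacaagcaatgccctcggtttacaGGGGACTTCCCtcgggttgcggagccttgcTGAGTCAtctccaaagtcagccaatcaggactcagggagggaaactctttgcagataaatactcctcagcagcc
Cxcl9: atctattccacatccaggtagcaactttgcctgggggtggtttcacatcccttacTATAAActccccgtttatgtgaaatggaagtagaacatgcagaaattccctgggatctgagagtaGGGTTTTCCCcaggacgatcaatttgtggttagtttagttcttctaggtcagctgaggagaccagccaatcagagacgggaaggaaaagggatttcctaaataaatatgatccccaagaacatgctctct
Cxcl1: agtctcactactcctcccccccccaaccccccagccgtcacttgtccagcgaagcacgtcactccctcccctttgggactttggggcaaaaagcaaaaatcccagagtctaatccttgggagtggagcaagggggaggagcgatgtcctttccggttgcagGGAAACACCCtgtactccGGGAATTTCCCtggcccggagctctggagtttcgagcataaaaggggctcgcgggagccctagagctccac
Cxcl2: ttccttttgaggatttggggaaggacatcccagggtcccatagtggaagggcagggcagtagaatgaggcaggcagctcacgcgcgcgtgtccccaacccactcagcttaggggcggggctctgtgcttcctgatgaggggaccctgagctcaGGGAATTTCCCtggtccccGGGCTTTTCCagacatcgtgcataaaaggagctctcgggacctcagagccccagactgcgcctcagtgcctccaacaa

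The motifs, each searched on both strands, were GGG, any 3 bases, T, any base and CC for NF-kB, GAAA, any 2 bases and GAAA for the ISRE, TTCNNNGAA for the GAS, TGANTCA for AP-1 and TATAAA for the TATA box. The NF-kB motif lay in 4 of the 5 windows, in Cxcl1, Cxcl2, Cxcl9 and Cxcl10, against 14.9% of the 32851 windows of the same length. Cxcl10 held 2 separate stretches of it, at 159 to 150 and 104 to 94 bases before the start. Cxcl1 also held 2 stretches, at 89 to 80 and 71 to 61 bases, and Cxcl2 held them at 97 to 87 and 78 to 69 bases. Cxcl9 held a single one at 130 to 121 bases. Matches that overlap on either strand were joined into 1 stretch.

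The ISRE motif was found in Cxcl10 alone of the 5, at 213 to 204 bases before the start, and in 2.98% of all windows. Cxcl10 also held the AP-1 motif at 74 to 68 bases, a motif in 6.75% of all windows. The GAS motif, in 7.02% of all windows, was in none of the 5. The TATA letters, in 12.4% of all windows, were found in Cxcl9 at 195 to 190 bases and in Cx3cl1 at 6 to 1 bases before the annotated start. A match describes letters in a window and not a bound factor, and a window without a match can still hold a site of another form.

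**Figure D1:**
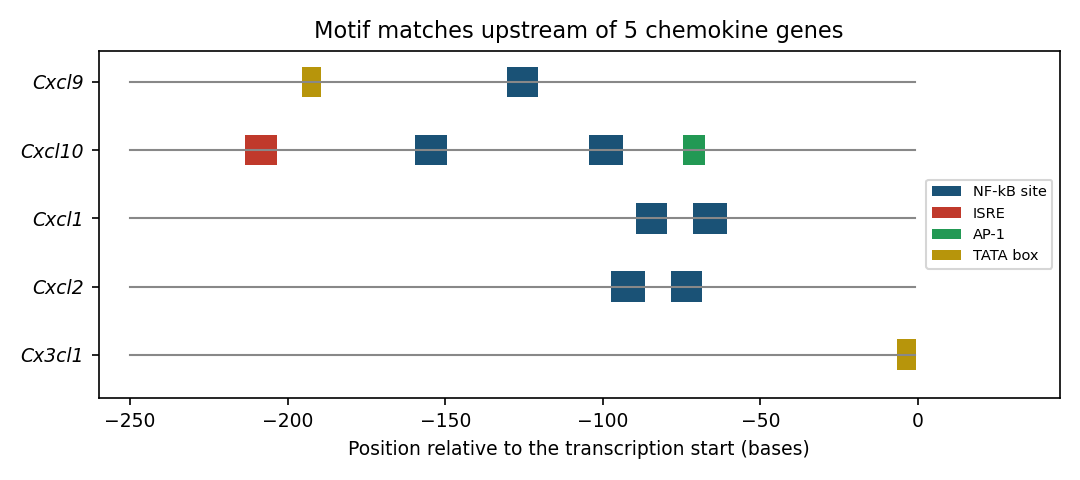
Motif matches in the 250 bases before the annotated start of 5 chemokine genes, with the horizontal axis in bases relative to the start and coloured blocks for the matched stretches. Cxcl10 is the only row with an ISRE block, and 4 of the 5 rows hold an NF-kB block.

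Interferon-type genes stood higher on the Mst1r-labelled array than on the other arrays. Cxcl10 (NM_021274), a ligand of the receptor Cxcr3 that attracts activated T cells, had a processed signal of 5661 with empty vector, 10332 on the Mst1r-labelled array and 4875 on the Slpi-labelled array. Scaled to the 75th percentile of each array, the Mst1r-labelled array was 1.10 ± 0.13 higher than empty vector on the log2 scale, a 2.14-fold difference. The Slpi-labelled array differed from empty vector by -0.14 ± 0.13, which is about the spot SD. With spike-in scaling or no scaling the difference from empty vector stayed above 0 but under 2-fold, at 0.996 and 0.87 on the log2 scale. In such bulk RNA, more cells making a transcript and more transcript in each cell cannot be told apart. The order was thus Mst1r-labelled first, with the other 2 arrays not set apart by more than 2 spot SDs in the main scaling. With spike-in scaling the Slpi-labelled array differed from empty vector by -0.37, beyond 2 spot SDs, and with median scaling by 0.03.

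Cxcl9 (NM_008599), another Cxcr3 ligand and a classical target of interferon gamma, was well above background on the Mst1r-labelled array alone. Its signal was 54.1 there, 5.41 on the empty vector array and 3.59 on the Slpi-labelled array. Since the dim arrays give only a bound, the Mst1r-labelled array was at least 3.35-fold higher than empty vector and at least 3.63-fold higher than the Slpi-labelled array. The bound sets the bright signal against the dim spot's own value or, where that is higher, the faintest value that the dim array still rated as well above background, after scaling.

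The position of the Cxcl9 spot bears on this value. It was printed in row 121 of 384, among the first 128 rows, whereas the other 8 probes lay between rows 160 and 363. Spots of spike-in control probes whose median signal was under 15 exceeded a signal of 50 in 4.01% of 922 cases in rows 1 to 128 of the Mst1r-labelled array and in 2 of 1731 cases in the rows from 129 on. Of those 922 control spots, 32 were at least as bright as the Cxcl9 spot. With normexp background correction at an offset of 50, the log2 difference from empty vector was 0.93, under 2-fold. The part of this bright region in the Cxcl9 value was not tested.

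Ccl5 (NM_013653), which attracts T cells and monocytes, read 5011, 5896 and 4667 on the empty vector, Mst1r-labelled and Slpi-labelled arrays. The Mst1r-labelled array was 0.47 ± 0.13 higher than empty vector on the log2 scale, or 1.38-fold. Without scaling the first difference was 0.23, within 2 spot SDs. The Slpi-labelled array differed by -0.02 ± 0.13. Ccl5 thus had the same order as Cxcl10, at a smaller distance: within these arrays the ratio of Cxcl10 to Ccl5 was 1.55-fold higher on the Mst1r-labelled array, a log2 difference of 0.63 ± 0.19.

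**Figure D2:**
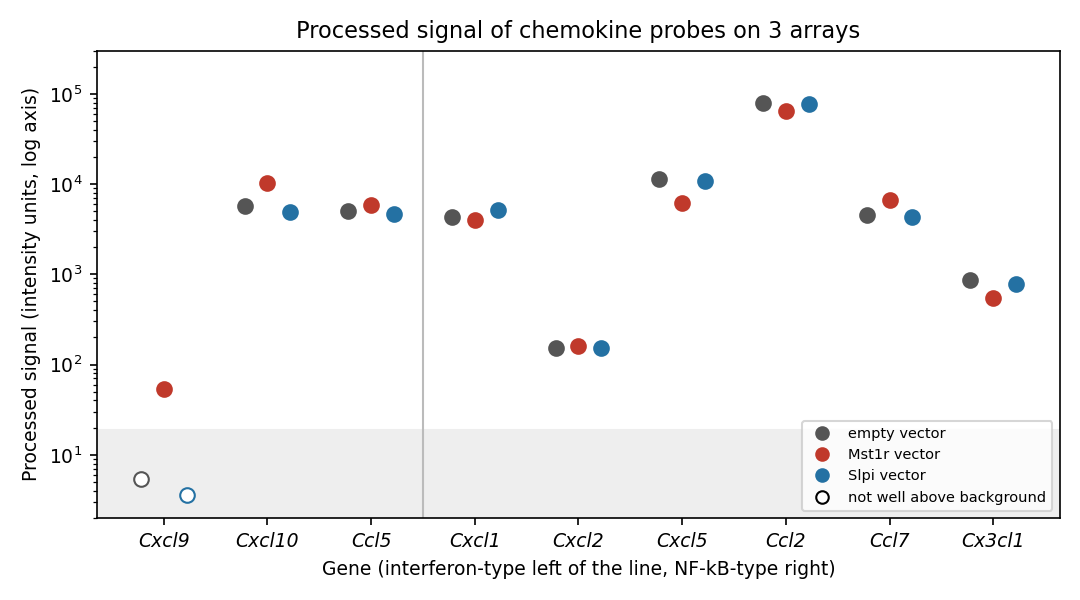
Processed signal of the 9 chemokine probes (log axis, intensity units) on the 3 arrays, 1 point for each array, with open points for values not well above background and a grey band up to 18.9, the highest of the 3 arrays' lowest signals well above background. Cxcl9 leaves the band on the Mst1r-labelled array alone, whereas the other 8 genes are above it on all arrays, and levels of different genes are not comparable because they come from different probes.

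NF-kB-type genes did not move one way. The 3 ligands of Cxcr2, the main receptor that draws neutrophils, differed among themselves. Cxcl5 (NM_009141) read 11460 with empty vector, 6104 on the Mst1r-labelled array and 10841 on the Slpi-labelled array. It was lower on the Mst1r-labelled array than with empty vector, by a log2 difference of -0.68 ± 0.13, or 1.60-fold. The Slpi-labelled array differed from empty vector by -0.002 ± 0.13.

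Cxcl1 (NM_008176) read 4362, 3997 and 5094 on the empty vector, Mst1r-labelled and Slpi-labelled arrays. Its log2 difference from empty vector was 0.10 ± 0.12 on the Mst1r-labelled array, within the spot SD, and 0.30 ± 0.13 on the Slpi-labelled array. The latter was more than 2 spot SDs from empty vector, but not with spike-in scaling (0.06), without scaling (0.22) or with normexp background correction (0.22 and 0.24 at offsets of 50 and 0).

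Cxcl2 (NM_009140) was the dimmest of the probes above background on all arrays, at 154, 162 and 152. Its log2 differences from empty vector were 0.30 ± 0.27 on the Mst1r-labelled array and 0.06 ± 0.27 on the Slpi-labelled array, and neither was set apart from 0 by 2 spot SDs. Cxcl1 and Cxcl2, whose windows above each hold 2 NF-kB stretches, differed in their change on the Mst1r-labelled array by 0.19 ± 0.30, which is within the spot SD.

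The monocyte-attracting ligands of Ccr2 also parted. Ccl2 (NM_011333) had signals of 79410, 63959 and 76658 on the empty vector, Mst1r-labelled and Slpi-labelled arrays, with no spot marked as saturated. Its log2 difference from empty vector was -0.08 ± 0.08 and 0.03 ± 0.08, both within 2 spot SDs. The first value depends on the scaling, at -0.18 with spike-in scaling and -0.31 without scaling, both beyond 2 spot SDs. Ccl7 (NM_013654) read 4560, 6708 and 4365 in the same order. It was 1.73-fold higher on the Mst1r-labelled array than with empty vector, 0.79 ± 0.13 on the log2 scale, and 0.02 ± 0.13 apart on the Slpi-labelled array. Between the neighbouring genes, the ratio of Ccl7 to Ccl2 was 1.83-fold higher on the Mst1r-labelled array, a log2 difference of 0.87 ± 0.16.

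Cx3cl1 (NM_009142), or fractalkine, is a membrane-bound chemokine that is shed by the proteases Adam10 and Adam17. It read 854 with empty vector, 545 on the Mst1r-labelled array and 784 on the Slpi-labelled array. The log2 difference from empty vector was -0.42 ± 0.14 on the Mst1r-labelled array and -0.05 ± 0.14 on the Slpi-labelled array, so it was low on the former alone.

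By groups, both measurable interferon-type genes, Cxcl10 and Ccl5, were higher on the Mst1r-labelled array than with empty vector, with a median log2 difference of 0.78. Measurable means well above background on all 3 arrays. Of the 6 NF-kB-type genes, 3 lay above 0 and 3 below, between -0.68 and 0.79, with a median of 0.01. The median over all 19238 measurable features was -0.03. The gap between the groups' medians was 0.77, and any scaling of whole arrays leaves it unchanged. With 2 genes in the first group and Ccl7 from the second higher than Ccl5, the ranges overlap.

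Called as apart were genes at least 2-fold different whose brighter array had a signal over 50, which is the study's own minimum. On the Mst1r-labelled array against empty vector, 2 of the 9 chemokines were called higher, Cxcl9 and Cxcl10, against 4.38% of the 18026 features with enough signal. Among probes below row 128 it was 1 of 8 chemokines, Cxcl10, against 2.01% of such features. None was called lower, against 3.44% of features and 0.439% below row 128. Against the spot error, 5 of the 8 measurable chemokines were more than 2 spot SDs from empty vector on the Mst1r-labelled array. They were Cxcl10, Ccl7 and, not without scaling, Ccl5 on the higher side and Cxcl5 and Cx3cl1 on the lower side. Of the measurable features, 15.7% were more than 2 spot SDs away. The spot SD was larger for dim probes, at 0.27 for Cxcl2 against 0.13 for Cxcl10 and 0.08 for Ccl2. Bright probes thus pass 2 spot SDs at smaller differences. The share of features was not matched for signal, and the part of brightness in this contrast was not tested.

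No chemokine was called on the Slpi-labelled array against empty vector, where 2.73% of features were called higher and 3.25% lower. There 1 of the 8 measurable chemokines, Cxcl1, was more than 2 spot SDs away, against 4.48% of features, again not matched for signal. The medians were -0.08 for the interferon-type genes and 0.02 for the NF-kB-type genes, beside -3.5e-05 over all measurable features.

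Setting the Mst1r-labelled array against the Slpi-labelled array shares the former with the first comparison, so it is no separate evidence. Cxcl9 and Cxcl10 were called higher there too, against 4.22% of features, and none was called lower, against 2.73%. Cxcl10 was 2.35-fold higher, or 1.24 ± 0.13 on the log2 scale, Ccl7 0.77 ± 0.13 and Ccl5 0.49 ± 0.13 higher. Cxcl5 had a log2 difference of -0.68 ± 0.13, Cx3cl1 of -0.37 ± 0.14, Cxcl1 of -0.20 ± 0.12, Ccl2 of -0.11 ± 0.08 and Cxcl2 of 0.24 ± 0.27. The same 5 genes were beyond 2 spot SDs, as were 17.3% of features, not matched for signal. The medians were 0.86 for the interferon-type genes and -0.15 for the NF-kB-type genes.

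**Figure D3:**
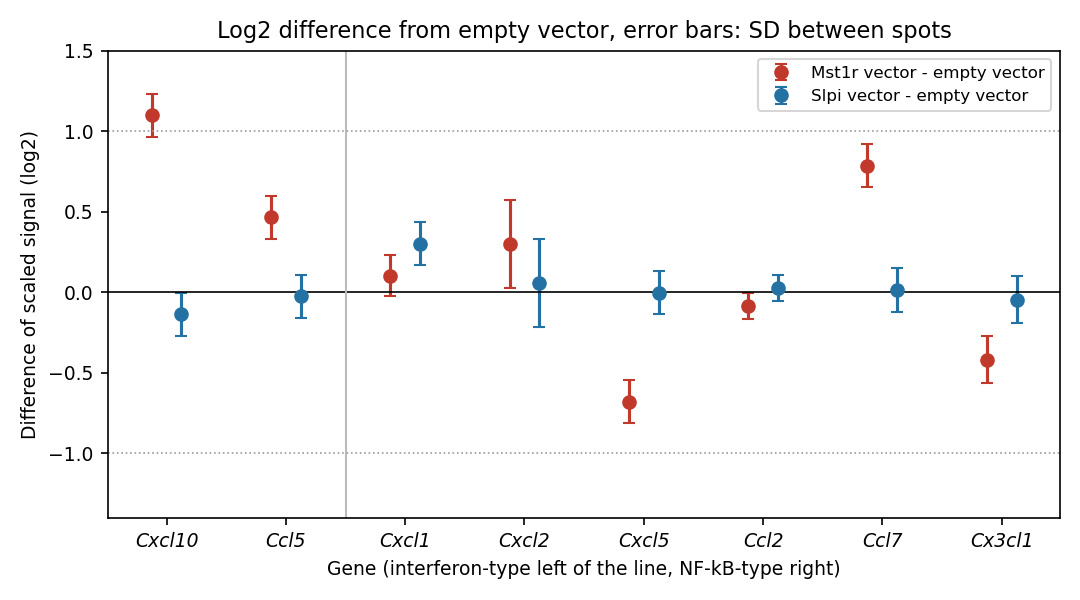
Log2 difference of the scaled signal from empty vector for the 8 chemokines well above background on all arrays, with the spot SD as error bars and dotted lines at 2-fold. Points of the Mst1r-labelled array run from -0.68 (Cxcl5) to 1.10 (Cxcl10), and those of the Slpi-labelled array from -0.14 (Cxcl10) to 0.30 (Cxcl1).

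Other chemokine ligands were examined as a list of 26 genes. A probe was matched for all 26, of which 14 were above background on no array and 9 on all 3. Of these 9, 2 were at least 2-fold higher on the Mst1r-labelled array than with empty vector and none was 2-fold lower, with a median of 0.12. Over all measurable features, 2.14% were 2-fold higher and 0.780% lower.

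Ccl8, a monocyte chemoattractant protein encoded in the same cluster as Ccl2 and Ccl7, read 407, 1785 and 453 on the empty vector, Mst1r-labelled and Slpi-labelled arrays. That is a log2 difference of 2.36 ± 0.13 on the Mst1r-labelled array, above that of any of the 8 measurable members of the set. Ccl4, which attracts monocytes, read 66.0, 225 and 47.0, and was 2.41 ± 0.42 higher on the Mst1r-labelled than on the Slpi-labelled array on the log2 scale. Its probe was in row 77, in the same upper region as Cxcl9, and its second probe in row 213 read 35.6, 130 and 21.4, a difference of 2.75 ± 0.42 between those arrays and of 2.10 ± 0.42 from empty vector. Cxcl16, a membrane-bound chemokine like Cx3cl1, had a difference of -0.52 ± 0.13 from its brighter probe and -0.18 ± 0.14 from its second.

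Ccl12, a mouse ligand of Ccr2 named here after its values were seen, was above background on the Mst1r-labelled array alone, at 48.1 against 4.25 and 5.41. It was at least 2.98-fold higher there than with empty vector, and its probe lay in row 259, below that region. Cxcl3, a further ligand of Cxcr2 likewise chosen, read 9642, 7065 and 9219, a difference of -0.22 ± 0.13 on the Mst1r-labelled array.

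Chemokine genes lie in clusters, and their order in the RefSeq gene table (GRCm38.p6) was set beside the values. On chromosome 5, Cxcl5, Cxcl1 and Cxcl2 lie in a run of 7 chemokine genes with no other protein-coding gene between them. Cxcl9, Cxcl10 and Cxcl11 follow after 16 genes. The 6 genes of the run that were above background on all arrays lay between -0.68 and 0.30 on the Mst1r-labelled array. Cxcl9 and Cxcl10, separated by 1 gene, were the chemokines called higher on this chromosome.

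On chromosome 11, Ccl2, Ccl7, Ccl11, Ccl12, Ccl8 and Ccl1 are consecutive. Ccl2 was at -0.08, its neighbour Ccl7 at 0.79 and Ccl8 at 2.36, so adjacent genes of one cluster differed widely. Ccl5 opens a second run after 25 genes, which ends with Ccl4. Cx3cl1 lies on chromosome 8 between Ccl22 and Ccl17, and Ccl17 read 50.4, 39.4 and 43.1, a difference of -0.13 ± 0.53.

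**Figure D4:**
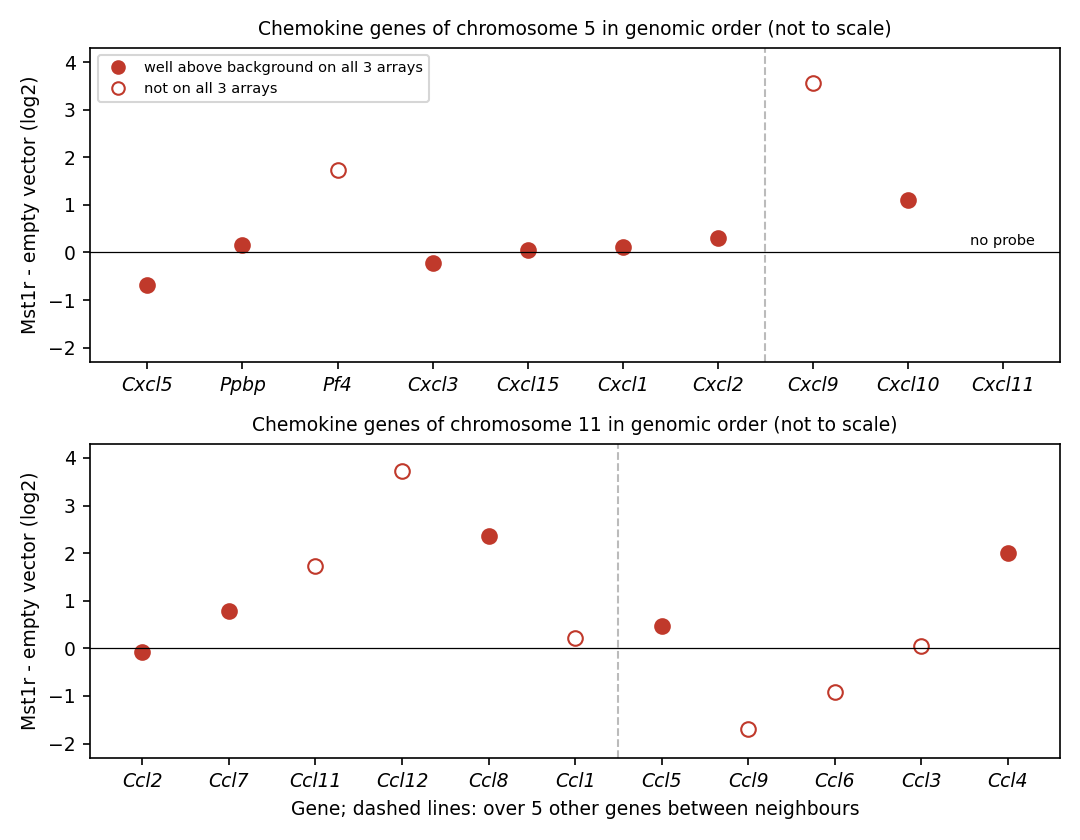
Log2 difference of the Mst1r vector array from the empty vector array for chemokine genes in their order on chromosomes 5 and 11, with open points for genes not well above background on all 3 arrays, whose distances are not measured. Cxcl11 has no point because no probe was matched to it. Along chromosome 11, filled points lie at -0.08 for Ccl2, 0.79 for Ccl7 and 2.36 for Ccl8, and along chromosome 5 at -0.68 for Cxcl5 and 1.10 for Cxcl10.

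Receptors for the ligands were mostly not detected. Of 23 chemokine receptor genes, 18 were above background on no array and 2 on all 3. Cxcr3, Cxcr2 and Ccr2, the receptors of the interferon-type Cxcl ligands, of Cxcl1, Cxcl2 and Cxcl5, and of Ccl2 and Ccl7, had signals of at most 9.33 and were on no array above background. The atypical receptor Ccrl2, which binds chemerin, read 43.9, 121 and 37.9, a log2 difference of 1.70 ± 0.42 on the Mst1r-labelled array. Ccr10, a receptor of Ccl27 and Ccl28, had a difference of -0.67 ± 0.27.

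Among 12 genes of chemokine processing and mRNA decay, 9 were measurable and 1 was 2-fold higher on the Mst1r-labelled array, with a median of -0.13. It was Zfp36, which binds AU-rich elements and speeds decay of cytokine mRNAs, at 236, 674 and 237, a difference of 1.75 ± 0.22. Its probe lay in row 2, within the bright region of the array. Rc3h1 and Zfp36l2, which also act in mRNA decay, had differences of -0.35 ± 0.14 and -0.26 ± 0.13.

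The genes of the 2 routes were set beside the chemokines from lists of known members. Of 18 genes of interferon signalling, 17 were measurable, 2 were 2-fold higher on the Mst1r-labelled array and none lower, with a median of 0.20, which was -0.03 without scaling. Ifnb1, which encodes interferon beta, read 144, 383 and 122, a log2 difference of 1.64 ± 0.22, whereas Ifng, which encodes interferon gamma, was on no array above background. The feedback inhibitor Socs1 had a difference of 1.48 ± 0.22 and the transcription factor Irf1, whose probe lay in row 1, one of 0.95 ± 0.13.

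Of 20 interferon-stimulated genes that are not chemokines, 18 had a probe and all 18 were measurable. On the Mst1r-labelled array 16 of them lay above 0 and 7 were 2-fold higher, with a median of 0.59, beside 44.6% above 0 and 2.14% at least 2-fold higher over all measurable features. Without scaling 15 lay above 0 and 5 were 2-fold higher, with a median of 0.36. Among probes printed below the upper region of rows, 11 genes were measurable. Of these 11, 9 lay above 0 and 2 were 2-fold higher, with a median of 0.58. On the Slpi-labelled array 4 lay above 0 and 14 below, with a median of -0.14, beside 49.98% of all measurable features above 0. That direction turned with median scaling, under which 13 lay above 0, with a median of 0.03. The guanylate-binding protein gene Gbp2 had a log2 difference of 3.96 ± 0.13 on the Mst1r-labelled array, the immunity-related GTPase gene Iigp1 one of 3.42 ± 0.13 and Ifit3 one of 1.79 ± 0.13. These 3 probes lay in rows 32, 56 and 126, all in the upper region, at signals of 3926, 2827 and 1365. The highest dark control spot on that array read 289, and the part of the bright region in these 3 values was not tested.

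Of 23 NF-kB signalling genes, 20 were measurable, 1 was 2-fold higher and none lower, with a median of -0.002. Tnf, which encodes tumour necrosis factor, read 178, 312 and 200, a difference of 1.04 ± 0.22, with its probe in row 77. A second Tnf probe in row 296 was at background on all arrays, with 3.82, 3.82 and 3.36, so the probes disagree. The inhibitor gene Nfkbie had a difference of -0.65 ± 0.13 and Nfkbiz, a nuclear cofactor, one of 0.47 ± 0.27. Of 18 NF-kB targets that are not chemokines, 17 were measurable, 2 were 2-fold higher and none lower, with a median of 0.05. The interleukin gene Il6 had a difference of 2.48 ± 0.22, Traf1 one of 1.07 ± 0.22 and the growth factor gene Csf2 one of 0.60 ± 0.27, and the last 2 were printed in rows 37 and 45.

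On the Slpi-labelled array no gene of these 4 lists was 2-fold apart from empty vector. The medians there were 0.003 for interferon signalling, 0.02 for NF-kB signalling and 0.09 for NF-kB targets. These counts and medians describe 1 array against another, as do those of the chemokines.

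**Figure D5:**
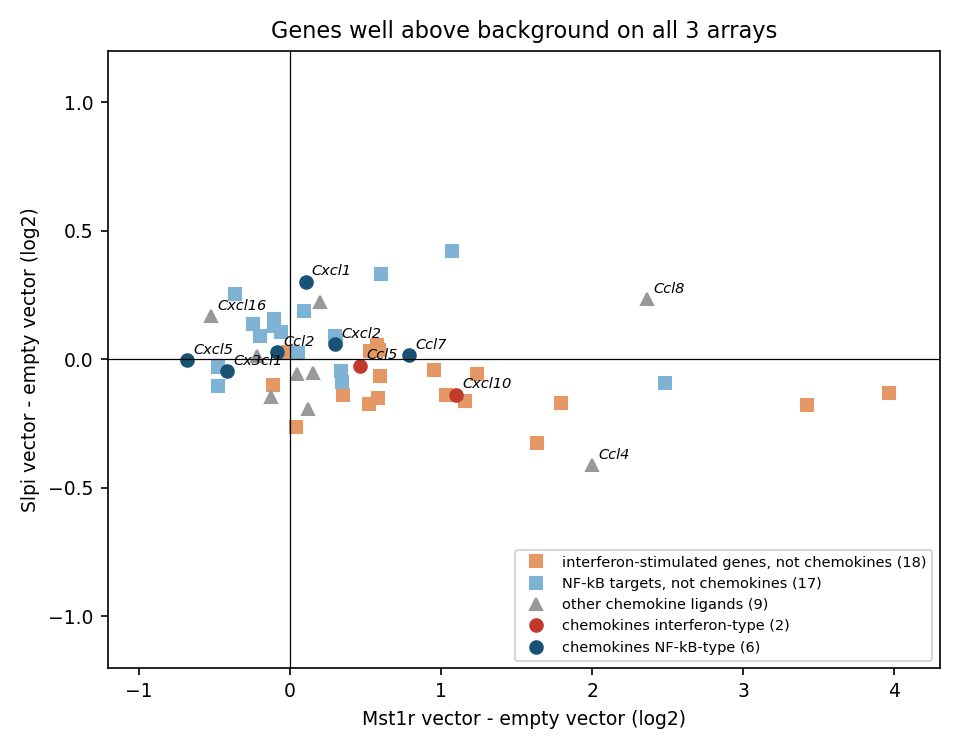
Log2 difference from empty vector on the Mst1r vector array (horizontal) and the Slpi vector array (vertical) for chemokines, interferon-stimulated genes and NF-kB targets that were well above background on all 3 arrays, 1 point for each gene. Both axes share the empty vector array, interferon-stimulated genes reach 3.96 (Gbp2) to the right, and NF-kB-type chemokines spread from -0.68 to 0.79 around 0.

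Genes with the pattern most like that of Cxcl10, the brightest measurable interferon-type gene, were sought by the Euclidean distance between the pairs of log2 differences from empty vector. Among 12455 measurable genes with a symbol, the nearest were Best2 (0.049), Ifit2 (0.065), Ifit1 (0.068), Sag (0.085) and Spink13 (0.090), and 7 genes lay within 0.1. For Ccl2, the brightest NF-kB-type gene, the nearest were Hirip3, Zfp59, Nfx1, Rbm28 and Pced1a, but 2590 genes lay within 0.1, so its pattern near 0 sets no gene apart. Such a likeness rests on 2 differences that share an array.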

How the data were processed

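Total RNA of Hepa1c1c7 cells was hybridised to SurePrint G3 Mouse arrays with 1 dye. The deposited values are spot intensities: the authors' headers name processed signals, background-subtracted and spatially detrended, from Feature Extraction 12.0.3.1, for an array design built on mm9. The methods name an earlier version. All 3 arrays were on 1 slide with 1 scan. The deposited series table holds log2 values scaled by the authors, of which 99.95% matched the values below within 0.01. Its direction and scale were checked in this way, and it served as an alternative only.

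Spots marked as outliers were left out where a probe had unmarked spots, and a probe with marked spots only kept them. For probes printed on 1 spot, as those of the chemokines, nothing was left out. The spots of each probe were averaged as log2 processed signal, and the array's 75th percentile over non-control probes was subtracted. Of several probes of a gene, the brightest was used. Probes were named through unversioned RefSeq accessions in a gene table (GRCm38.p6): 32989 of 56605 probes had a symbol. The spot SD came from the 300 probes printed 10 times and from controls, by signal level, and combines both arrays. Most of these probes were very dim or very bright, counting each probe once per array. The spot SD rests on 9 such cases at log2 signals of 8 to 10, 12 at 10 to 12, 19 at 12 to 14 and 800 above 14. At the levels of most chemokines it is therefore a rough value. Limma 3.58.1 in R 4.3.3 gave the normexp alternatives, and Python 3.11.15 with pandas 2.3.3 the rest. The number of arrays limits the precision. The steps were tested on simulated data.

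Named were the chemokines, the transfected genes, the 3 measurable genes of each list with the largest difference on the Mst1r vector array, and the 5 genes nearest in pattern. Ccl12, Cxcl3, Ccl17, Ifng, Cxcr2, Cxcr3, Ccr2, Hnf4a, Ptprc, Adgre1 and Cd3e were named outside this rule, after their values were seen. The members and lists were chosen with earlier results of these data known. Some members of the lists are not reported here by name.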

Additional observations from a re-analysis of the deposited data

Results flagged for a closer look

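Spots of spike-in control probes whose median signal was under 15 exceeded a signal of 50 in 1.47% of 2653 cases on the Mst1r vector array and in 1.02% of 2653 on the Slpi vector array, against 0.930% of 2688 on the empty vector array. They are listed because these spots lie outside the measurement of genes. In rows 1 to 128 the shares were 4.01%, 2.82% and 2.68% in the same order. All of these spots had been marked as outliers in the files, either as uneven spots or as apart from the repeated spots of their probe. The second mark needs repeated spots, so a probe printed on a single spot cannot carry it. Whether the single spots of named genes carried the first mark is not reported here. Cxcl9, in row 121, is the only chemokine of the set printed in those rows, and without them 1 chemokine, Cxcl10, is called higher on the Mst1r vector array.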

How the results depend on the processing

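No paired analysis was possible because each group held 1 array. Of 264 values recomputed under 10 alternatives, 223 moved by less than the spot SD, 41 moved further and 0 of the called values changed sign. The 223 include 27 values with outlier spots kept and 24 with probe means above background. Since each gene had 1 probe on 1 spot, these values had no room to move. Cxcl10 stayed at 1.10 against empty vector on the Mst1r vector array under both. A further 27 come from the deposited series table, which holds the same arrays. All of these are therefore no sign of stability. With 1 array a group, none of the 10 alternatives measures the spread between cultures.

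Alternative scalings shifted all genes together: the median over features with enough signal moved by -0.10, -0.24 and 0.14 with spike-in scaling (Mst1r minus empty, Slpi minus empty, Mst1r minus Slpi vector) and by -0.23, -0.08 and -0.15 without scaling. Median scaling moved Slpi minus empty by 0.17 and Mst1r minus Slpi by -0.13. Relative to that median, Cxcl10 stayed at 1.13 and Cxcl5 at -0.64 on the Mst1r vector array under each scaling. On that array Cxcl1 ranged from -0.13 to 0.14, so it has no direction, whereas Cxcl10 ranged from 0.87 to 1.13, Ccl7 from 0.56 to 0.82, Ccl5 from 0.23 to 0.50, Ccl2 from -0.31 to -0.05, Cxcl5 from -0.91 to -0.61 and Cx3cl1 from -0.65 to -0.38. On the Slpi vector array, of the 8 measurable genes only Cxcl1, at 0.06 to 0.47, had 1 sign throughout.

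The number of chemokines called on the Mst1r vector array against empty vector was 1 in place of 2 with spike-in scaling and without scaling, which put Cxcl10 under 2-fold. It was also 1 with normexp correction at an offset of 50, in rows below 128 and over probe means above background, each of which leaves Cxcl9 uncalled or out. Under these 3, the number against the Slpi vector was 1 as well. Cxcl9 ranged from 0.93 to 3.58 against empty vector. The interferon-type and NF-kB-type medians were 0.55 and -0.22 against empty vector without scaling. On the Slpi vector array they were 0.084 and 0.187 with median scaling and -0.32 and -0.22 with spike-in scaling. For Mst1r minus Slpi vector they were 0.998 and -0.018 with spike-in scaling and 0.71 and -0.31 without.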
